A study of Mus musculus with 18 samples.

Results

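The retinoid X receptor (RXR) ligand LG268 was added to mouse embryonic stem (ES) cells that were also given the liver X receptor (LXR) ligand GW3965, and these cells were compared with cells given GW3965 alone. Members were chosen by group label: 2 libraries of the group with both ligands and 2 of the group with GW3965, which made 4 of the 18 libraries of the series. All cells were wild type E14, an established mouse ES line, grown without feeder cells on gelatin with serum and leukemia inhibitory factor. Each ligand was used at 1 µM for 24 h. RNA was sequenced and reads were counted per gene symbol. ES cells given LG268 for 24 h and ES control cells (2 libraries each) serve as the second comparison below. The remaining libraries of the series are labelled day 8, day 16 and day 17, and day 16 and day 17 with GW3965. They are not compared here but enter the fit of all 18 libraries. The treatment protocol names dimethylsulfoxide as the vehicle, and the control labels do not repeat it. The both-ligand files carry a control tag in their names, but title and characteristics name both ligands, and these were followed. The labels do not say whether replicates were separate cultures, so the spread between replicate libraries may be technical. The p-values of the main fit rest on a spread estimated over all 18 libraries, not on that of these groups alone.

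LXR and RXR are nuclear receptors that bind DNA together as a pair. The LXR partner is activated by oxysterols or by synthetic agonists such as GW3965, and it switches on genes of cholesterol export, fatty acid synthesis and phospholipid remodelling. The pair is known as permissive, meaning that an RXR agonist such as LG268 can also activate it, and RXR pairs in the same way with the peroxisome proliferator-activated receptors (PPAR). RXR also pairs with the retinoic acid receptors, whose targets drive ES cells out of the pluripotent state.

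Gene counts were 44.79 and 20.92 M in the GW3965 libraries and 19.48 and 20.54 M in the both-ligand libraries, within the range of 16.75 to 44.79 M over the series. The ES label fitted the markers: all 28 pluripotency genes were measured, with a summed level of 4268 to 4707 counts per M (CPM) in the 8 ES libraries. Fibroblast genes summed to 226 to 319 CPM and neural genes to 579 to 677 CPM. Replicates agreed less in the both-ligand group (chi-square per gene 9.67) than in the 3 other ES groups (2.74 to 3.21). Both also showed a trend with GC content. In the lowest decile of genes by GC content, the median log2 level over the GW3965 mean was 0.23 in both-ligand replicate 1 and 0.08 in replicate 2, and in the highest decile it was -0.41 and -0.13. In the 6 other ES libraries these medians ran from -0.09 to 0.04.

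**Figure D1:**
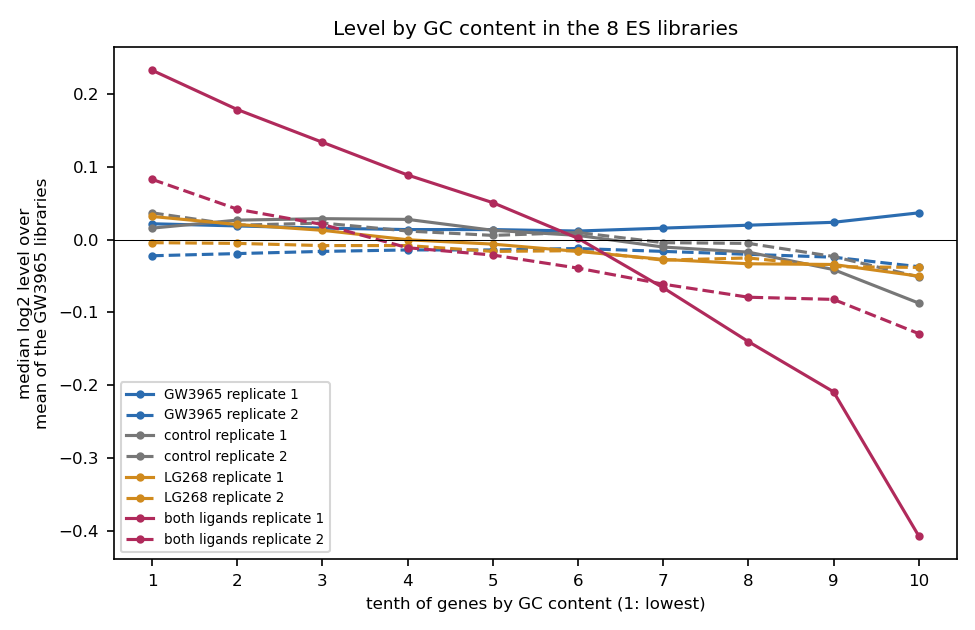
Median log2 level of each ES library over the mean of the GW3965 libraries (vertical axis), in deciles of genes ordered by GC content (horizontal axis, 1144 to 1158 genes at 5 CPM or more in each). Both-ligand replicate 1 falls from 0.23 to -0.41 and replicate 2 from 0.08 to -0.13, while the other 6 libraries stay within 0.09 of 0.

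With LG268 on top of GW3965, some genes of LXR signalling, fatty acid synthesis, phospholipid remodelling and the retinoid response rose, and some genes of naive and primed pluripotency and of the primitive streak fell. None of these lists had more members that were called than members that were not. In the edgeR quasi-likelihood fit of all 18 libraries, 1831 of 17166 genes were called (Benjamini-Hochberg adjusted p below 0.05), which is 10.7% of those tested. Of these 632 were higher (3.68%) and 1199 lower (6.98%), and 95 changed by 2-fold or more. These shares stand beside the list counts of this fit below, and no list was tested against them. A fit of the 4 libraries alone called 111 of 14811 genes (0.749%), 66 higher (0.446%) and 45 lower (0.304%), and each of these 111 was also called in the fit of 18 libraries. They are named below as called in both fits (0.647% of genes, 0.384% higher and 0.262% lower). In bulk RNA, fewer cells of a type and less RNA per cell cannot be told apart.

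The larger count moved with the libraries and the scaling. It was 325 without both-ligand replicate 1 and 3077 without replicate 2, 336 without GW3965 replicate 1 and 842 without GW3965 replicate 2. With offsets for GC content and gene length it was 1195, with 315 higher and 880 lower. Of the 1831 calls 848 were kept there, 221 of the 632 higher and 627 of the 1199 lower. With DESeq2 size factors 952 were higher and 938 lower. Of genes in the lowest decile of GC content 17.6% were called higher and 0.3% lower, and of those in the highest 0.3% and 32.4%. The part of this trend in the calls was not tested gene by gene. Of the 111 genes 90 were also called without both-ligand replicate 1 and 103 with the GC and length offsets. Among these 111, the 66 higher genes had a median fold of 1.48, with 1.27 the lowest, and the 45 lower ones had folds of 1.28 to 3.07 with a median of 1.59 (SE of single genes below). In each of the 111 genes the libraries of the groups did not overlap, which was so for 50.3% of all genes tested. The 111 were chosen by a fit of these same 4 libraries, which favours genes without overlap, so this is no separate support.

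**Figure D2:**
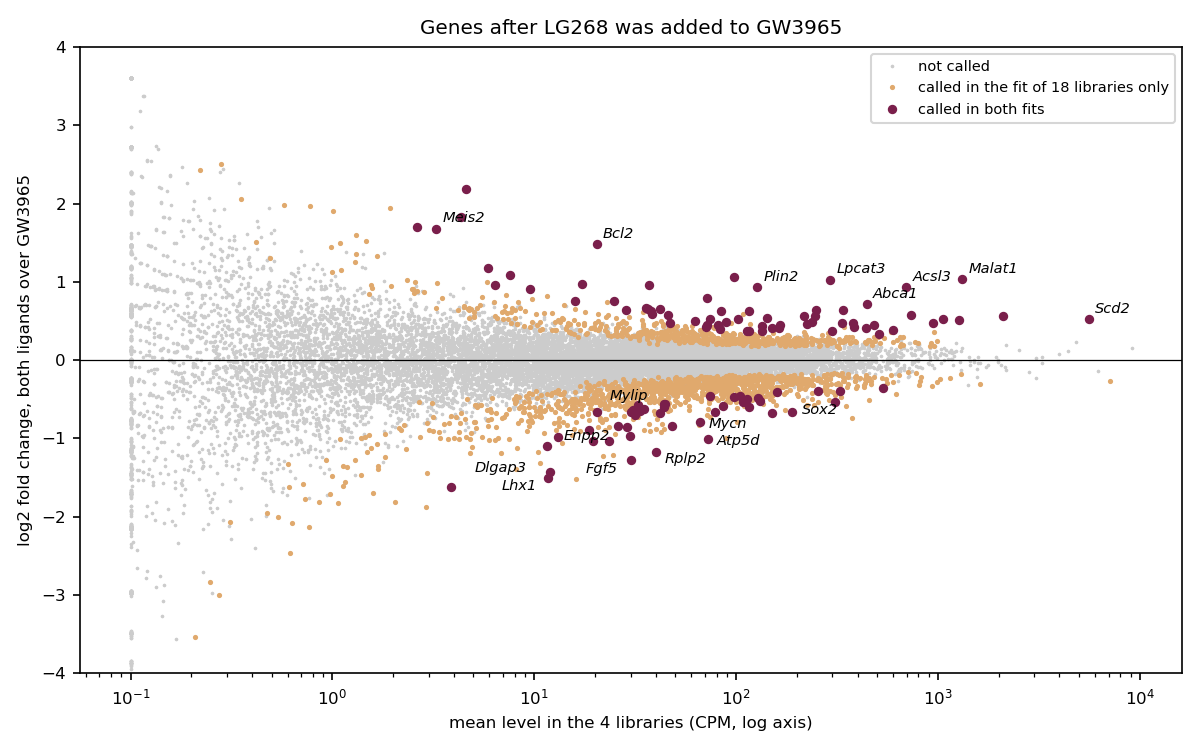
Log2 fold change of both ligands over GW3965 (vertical axis) against the mean level of the 4 libraries (CPM, log axis), one point per gene, with 52 genes beyond the axis. The 111 genes called in both fits (dark) include Meis2 at 1.68 and Lhx1 at -1.50, and Scd2 is called at the highest level.

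Among 20 LXR target genes tested, 8 rose with both ligands and 1 fell, with a median log2 fold change of 0.30 against -0.002 over all genes tested. In the fit of the 4 libraries 6 of 18 rose and 1 fell. With the GC and length offsets 8 rose and 1 fell.

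Abca1, which moves cholesterol out of the cell (chromosome 4, 53030787 to 53159895), was at 345 and 327 CPM with GW3965 and at 576 and 531 CPM with both ligands. Both libraries with LG268 lay above both without it. The rise was 1.65-fold (log2 0.72 ± 0.0745 SE, edgeR adjusted p = 1.29e-05). Abcg1, another sterol exporter (chromosome 17, 31057675 to 31117988), was at 198.0 and 198.3 CPM with GW3965 and at 276 and 308 CPM with both ligands. It rose 1.48-fold (log2 0.56 ± 0.0843, adjusted p = 0.000543), with no overlap. Lpcat3 (chromosome 6, 124663027 to 124704418) encodes the acyltransferase that puts polyunsaturated fatty acids into phospholipids. Its levels were 190.1 and 193 CPM with GW3965 and 401 and 382 CPM with both ligands, 2.04-fold higher (log2 1.03 ± 0.0533, adjusted p = 6.66e-10). This was the largest rise among the called LXR targets. Of its 50-mers (stretches of 50 bases) 10.2% are also found in another gene. Rnf145 (chromosome 11, 44518964 to 44565520), whose product is a ubiquitin ligase of sterol sensing, went from 383 and 372 CPM to 523 and 480 CPM, without overlap (1.33-fold, adjusted p = 0.000212). The lipase gene Lpl rose 1.35-fold from 50.1 and 52.5 to 73.8 and 64.8 CPM (adjusted p = 0.042), which missed the threshold in the fit of 4 libraries (adjusted p = 0.0648) and with the GC and length offsets (adjusted p = 0.115).

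Mylip moved the other way. Its product, a ubiquitin ligase, marks the LDL receptor for degradation (chromosome 13, 45389742 to 45412022). Levels were 51.5 and 53.5 CPM with GW3965 and 34.5 and 36.7 CPM with both ligands, a fall of 1.47-fold (log2 -0.56 ± 0.0982, adjusted p = 0.00195) that both fits called. Without GW3965, LG268 left it at 9.73 and 11.2 CPM against 10.9 and 9.56 CPM in control (log2 0.03 ± 0.121, adjusted p = 0.991). The test of the difference between these responses did not pass (log2 -0.59 ± 0.156, adjusted p = 0.11). Without a filter on low counts it passed (adjusted p = 0.02), a setting in which 617 differences were called in all.

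Srebf1 and Fasn set the both-ligand libraries apart from each other. Srebf1, a transcription factor gene of lipid synthesis (chromosome 11, 60199089 to 60222581), was at 851 and 1290 CPM with both ligands and at 853 and 812 CPM with GW3965. Replicate 1 lay within the GW3965 range and replicate 2 far above it. The call (1.29-fold, adjusted p = 0.0417) was lost when replicate 2 with both ligands was left out (adjusted p = 0.817) and in the fit of the 4 libraries (adjusted p = 0.226). Leaving out either GW3965 library also ended it, with adjusted p = 0.141 and 0.211. Fasn, the fatty acid synthase gene (chromosome 11, 120805846 to 120824547), was at 4264 and 4960 CPM with both ligands and at 4360 and 4113 CPM with GW3965, and did not pass (log2 0.12 ± 0.0727, adjusted p = 0.316). With the offsets for GC content and length Fasn passed (adjusted p = 0.00664), and the call of Srebf1 held (adjusted p = 0.000132). In the fit of the 8 ES libraries Srebf1 was not called (adjusted p = 0.0775). The transcripts of Srebf1 and Fasn have 58.4% and 57.9% GC, in the highest decile. Apoe (358 and 499 CPM against 417 and 423 CPM), Arl4c and Smpdl3a did not pass.

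**Figure D3:**
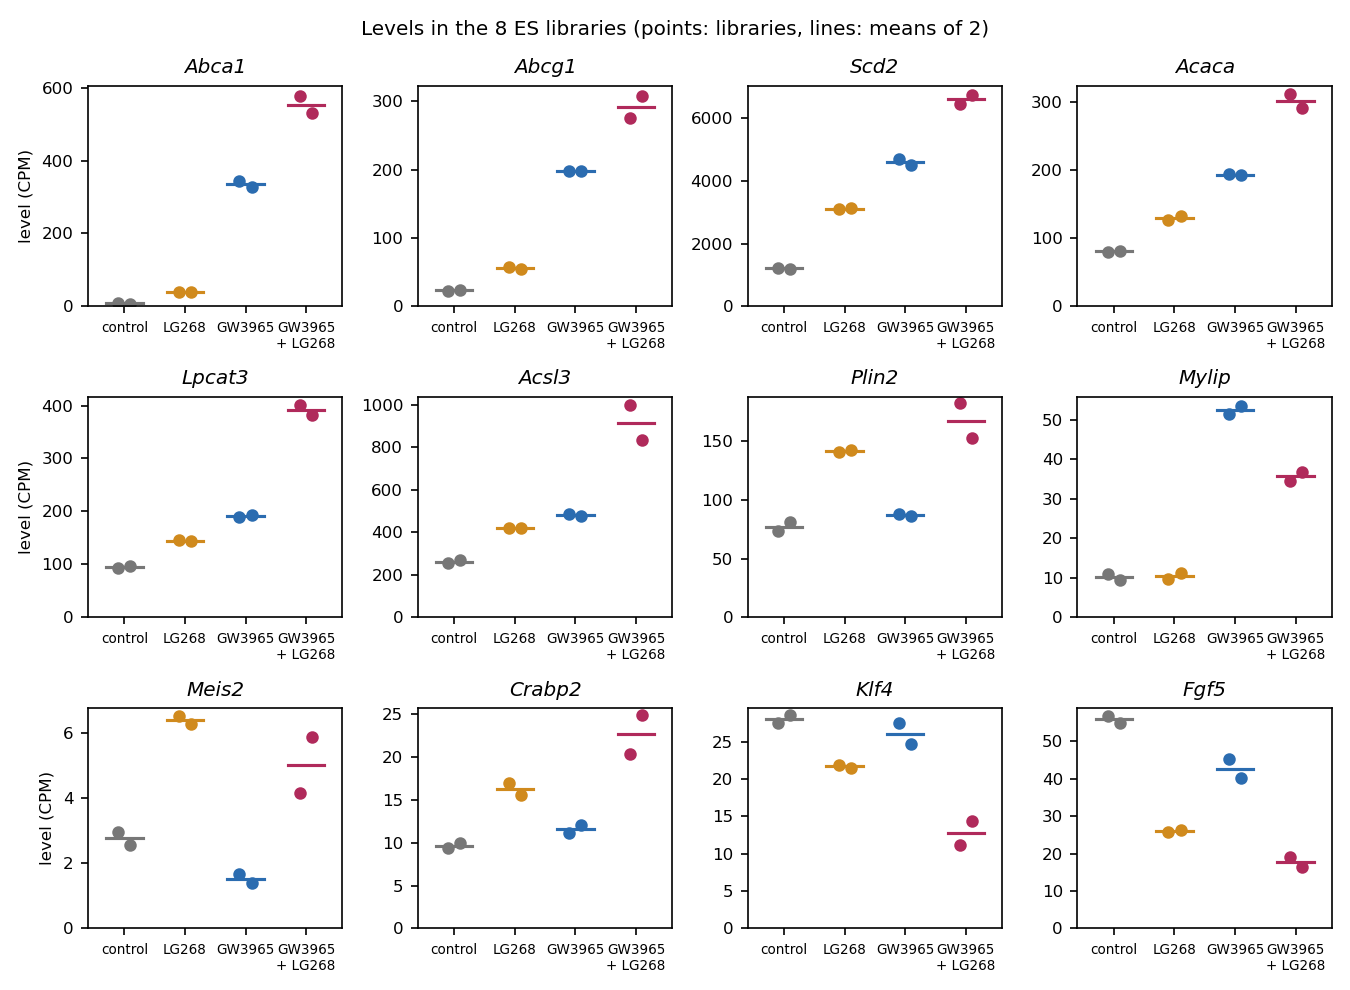
Levels (CPM, linear axes from 0) of 12 genes in the 8 ES libraries, by group, with points for libraries and lines for the means of 2. Abca1, Abcg1, Scd2, Acaca, Lpcat3 and Acsl3 stand highest with both ligands, Mylip is lower there than with GW3965, and Plin2, Meis2 and Crabp2 stand high in the 2 groups given LG268.

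Some genes that make, elongate and desaturate fatty acids rose. Among 14 genes of fatty acid synthesis 4 were called, all higher (median log2 0.13), and among 14 desaturases and elongases 3, again all higher (median 0.19). In the fit of 4 libraries these counts were 2 and 3, with 0 lower. Scd2, a stearoyl-CoA desaturase gene (chromosome 19, 44293674 to 44306864), was at 4686 and 4509 CPM with GW3965 and at 6444 and 6739 CPM with both ligands. It rose 1.43-fold (log2 0.52 ± 0.0542, adjusted p = 1.29e-05), and its neighbour Scd1 (chromosome 19, 44394455 to 44407879) rose 1.42-fold from 1064 and 1040 to 1508 and 1483 CPM (adjusted p = 0.0049). Neither overlapped between the groups. Without GW3965 replicate 1 the adjusted p of Scd1 was 0.0532. Elovl5, an elongase of polyunsaturated fatty acids (chromosome 9, 77917364 to 77984519), was at 264 and 263 CPM with GW3965 and 420 and 404 CPM with both ligands (1.56-fold, adjusted p = 1.42e-06).

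Acaca encodes acetyl-CoA carboxylase, which makes the building block of fatty acid chains (chromosome 11, 84129672 to 84401651). It rose 1.56-fold from 194 and 193 to 313 and 292.5 CPM (log2 0.64 ± 0.0577, adjusted p = 2.32e-06), although 52.6% of its 50-mers are shared with another gene, so its count is uncertain. Acss2, which activates acetate to acetyl-CoA (chromosome 2, 155517948 to 155585724), rose 1.73-fold from 53.8 and 51.2 to 93.9 and 88.2 CPM (adjusted p = 2.35e-05). Mid1ip1, whose product promotes the assembly of acetyl-CoA carboxylase, was at 87.6 and 84.2 CPM with GW3965 and at 109 and 150.4 CPM with both ligands (1.51-fold, adjusted p = 0.00288), and missed the threshold in the fit of 4 libraries (adjusted p = 0.0805). Acly, which supplies acetyl-CoA from citrate, did not pass (log2 0.11).

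Among 28 phospholipid and acyl-CoA genes 5 rose and 0 fell, with a median log2 of 0.03, so the called members stood apart from a list that as a whole lay near the median of all genes. In the fit of 4 libraries 3 rose: Lpcat3, Acsl3 and Acsl4. Acsl3, an acyl-CoA synthetase of lipid droplets and the endoplasmic reticulum (chromosome 1, 78657825 to 78707743), went from 483 and 477 CPM to 998 and 831 CPM (1.90-fold, log2 0.93 ± 0.0765, adjusted p = 9.22e-07). The 4 libraries did not overlap. Acsl4, the isoform that prefers arachidonic acid (chromosome X, 142317993 to 142390535), rose 1.40-fold from 207 and 189.6 to 289 and 268 CPM (adjusted p = 0.000351).

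Of 21 genes of cholesterol synthesis 4 rose and 1 fell in the fit of 18 libraries (median log2 0.13), and 0 were called in that of the 4 libraries. Pmvk, the phosphomevalonate kinase gene, was at 100.8 and 101.4 CPM with GW3965 and at 131 and 118 CPM with both ligands (1.23-fold, adjusted p = 0.0156). The 1 fall was Mvk, the mevalonate kinase gene, from 34.6 and 34.2 to 25.3 and 30.0 CPM (adjusted p = 0.0249). The calls of Pmvk and Mvk were lost when any of the 4 libraries except both-ligand replicate 2 was left out (adjusted p from 0.0815 to 0.317), and that of Mvk also with the GC and length offsets (adjusted p = 0.109).

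Promoter sequence was read for the genes called in both fits, because LXR, PPAR and retinoic acid receptors paired with RXR are known to bind 2 copies of a hexamer in the same direction, set 4, 1 or 5 bases apart. RefSeq promoter windows (GRCm38.p6, 250 bases before to 50 after each transcript start) were searched on both strands for the hexamer AGGTCA, or the close forms spelled AGTTCA and GGGTCA and also that spelled GGTTCA, repeated in this way, with at most 1 mismatch in the pair. Windows were found for 82 of the 111 genes, 50 higher and 32 lower. A repeat at 4 bases stood in a window of 4 of the 50 higher genes (8.0%, Acsl3, Acadvl, Gbp3 and Rnf145), of 0 of the 32 lower ones and of 2.12% of all 27025 genes with a window. A repeat at 1 base stood in 4 of the 50 (8.0%, Plin2, Rnf145, Gcnt1 and Gpm6a), in 0 of the 32 and in 2.99% of all these genes. A repeat at 5 bases stood in 1 of the 50 (2.0%, Lcorl), in 0 of the 32 and in 2.02% of all these genes. Several genes have more than 1 window, and in windows the shares for the higher genes were 6.06%, 6.06% and 1.52%, against 1.86%, 2.59% and 1.75% of all 32851 windows, for spacings of 4, 1 and 5 bases. A match describes the letters and is no evidence of binding. The patterns use the same hexamers, and Rnf145 held repeats of both spacings at different transcript starts. The sequences that follow are those of lipid genes described here, each read in the direction of its gene with the repeat in capitals. That of Acsl3 lies at chr1:78657673-78657768 (plus strand, repeat on the opposite strand, starting 112 bases before the start), that of Rnf145 at chr11:44520157-44520252 (plus strand, 92 bases before), that of Acadvl at chr11:70015470-70015565 (minus strand, 97 bases before), all with a spacing of 4 bases and 1 mismatch. That of Plin2 lies at chr4:86670232-86670309 (minus strand, repeat on the opposite strand, 225 bases before), with a spacing of 1 base and 1 mismatch.
Acsl3: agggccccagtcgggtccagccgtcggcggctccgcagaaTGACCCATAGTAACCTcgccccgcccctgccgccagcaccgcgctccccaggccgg
Rnf145: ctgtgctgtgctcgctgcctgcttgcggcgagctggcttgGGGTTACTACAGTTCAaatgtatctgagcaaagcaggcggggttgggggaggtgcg
Acadvl: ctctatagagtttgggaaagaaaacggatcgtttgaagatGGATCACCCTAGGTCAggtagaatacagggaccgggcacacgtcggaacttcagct
Plin2: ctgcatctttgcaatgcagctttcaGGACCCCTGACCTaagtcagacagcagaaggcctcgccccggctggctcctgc

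PPAR receptors are known to act on genes of lipid storage and fatty acid oxidation. Of 30 PPAR targets 6 rose and 0 fell (median log2 0.16), and 2 rose in the fit of 4 libraries, Plin2 and Acadvl. Plin2 coats lipid droplets (chromosome 4, 86648386 to 86670060). It was at 88.0 and 86.5 CPM with GW3965 and at 182 and 152 CPM with both ligands (1.91-fold, log2 0.94 ± 0.0847, adjusted p = 2.32e-06). LG268 without GW3965 raised it by a like ratio, from 73.0 and 81.3 to 141 and 142.5 CPM (1.84-fold, adjusted p = 5.76e-06), and the difference between the responses was log2 0.06 ± 0.12 (adjusted p = 0.897). Acadvl, which opens mitochondrial oxidation of long-chain fatty acids (chromosome 11, 70010183 to 70015411), rose 1.34-fold from 59.5 and 61.2 to 81.5 and 80.1 CPM (adjusted p = 0.000806). Of its 50-mers 24.0% are shared. Slc25a20, the carnitine carrier, was at 18.6 and 20.4 CPM with GW3965 and at 24.98 and 25.5 CPM with both ligands (1.30-fold, adjusted p = 0.00767). The call of Slc25a20 was lost in the fit of the 4 libraries (adjusted p = 0.111) and without GW3965 replicate 1 (adjusted p = 0.126). Angptl4 (7.80 and 7.34 CPM against 5.80 and 5.28 CPM) and Cd36 did not pass.

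Retinoid-induced genes were higher wherever they were called. Of 22 tested, 7 rose and 0 fell, with a median log2 of 0.56, and in the fit of 4 libraries 4 of 17 rose. Meis2, which encodes a homeodomain partner of Hox proteins (chromosome 2, 115863064 to 116065839), rose 3.20-fold from 1.66 and 1.38 to 4.15 and 5.88 CPM (log2 1.68 ± 0.185, adjusted p = 2.34e-05). Its relative Meis1 rose 1.84-fold in the fit of 18 libraries (adjusted p = 0.0375), with an adjusted p = 0.153 in the fit of the 4 libraries.

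Crabp2, which carries retinoic acid to its receptors (chromosome 3, 87948666 to 87953376), was at 11.1 and 12.1 CPM with GW3965 and at 20.4 and 24.97 CPM with both ligands (1.97-fold, adjusted p = 0.000724). Tgm2, a transglutaminase gene, rose 1.51-fold from 30.0 and 31.6 to 46.4 and 46.2 CPM (adjusted p = 0.00867), and lost its call without GW3965 replicate 1 or both-ligand replicate 1 (adjusted p = 0.104 and 0.0742). Rarb encodes retinoic acid receptor beta (chromosome 14, 16430839 to 16819156). It was low in all 4 libraries, at 0.734 and 0.718 CPM with GW3965 and 2.13 and 1.63 CPM with both ligands. The rise was 2.56-fold (log2 1.36 ± 0.28, adjusted p = 0.00493) without overlap, but 54.1% of its 50-mers are shared, and limma-voom (adjusted p = 0.0553) and the fit of 4 libraries (adjusted p = 0.0939) did not call it, nor did the fits without GW3965 replicate 1 or both-ligand replicate 1 (adjusted p = 0.0725 and 0.104). Cyp26a1, which degrades retinoic acid (chromosome 19, 37697798 to 37701536), was at 9.81 and 9.64 CPM with GW3965 and at 11.7 and 10.6 CPM with both ligands, which did not pass (log2 0.20 ± 0.19, adjusted p = 0.58). Of 15 genes of retinoid metabolism 0 were called in either of the 2 fits.

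Both Rarb and Cyp26a1 hold an exact repeat with a spacing of 5 bases in a promoter window, and the pair is shown because 1 gene was called and the other was not. The repeat of Rarb starts 53 bases before a transcript start inside the annotated gene (chr14:16575477-16575569, minus strand), and that of Cyp26a1 starts 32 bases before its start on the opposite strand (chr19:37697736-37697807, plus strand). Capitals mark the exact repeats, read in the direction of the genes. The Rarb stretch also holds a repeat at 5 bases with 1 mismatch, which starts 83 bases before the start and is left in lower case.
Rarb: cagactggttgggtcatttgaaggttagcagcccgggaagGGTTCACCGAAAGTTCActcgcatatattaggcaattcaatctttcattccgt
Cyp26a1: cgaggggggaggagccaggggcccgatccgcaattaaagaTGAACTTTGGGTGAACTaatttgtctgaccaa

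The receptors themselves moved little. Of 18 tested RXR and partner receptor genes 1 rose (Rarb) and 2 fell in the fit of 18 libraries, and 0 were called in that of the 4 libraries. Rxra was at 28.8 and 30.3 CPM with GW3965 and at 20.4 and 25.3 CPM with both ligands (adjusted p = 0.0156), and Nr1h2, the LXR beta gene, at 81.8 and 73.8 against 41.0 and 69.5 CPM (adjusted p = 0.0274). Their transcripts have 57.0% and 60.6% GC, and with offsets for GC content and length neither passed (adjusted p = 0.117 and 0.0951). Nr1h3, the LXR alpha gene, was at 1.47 and 1.33 CPM with GW3965 and at 1.35 and 1.26 CPM with both ligands, and did not pass. The median of this list was log2 -0.03, and with DESeq2 size factors it changed sign to 0.005.

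The rule for the largest rises called in both fits, at a mean of 5 CPM or more and without overlap, gave Bcl2, Ebf1, Pknox2, Utp14b, Malat1 and Lpcat3. Bcl2, which protects cells from apoptosis (chromosome 1, 106538178 to 106714274), was at 10.5 and 10.97 CPM with GW3965 and at 31.9 and 28.1 CPM with both ligands (2.80-fold, log2 1.49 ± 0.119, adjusted p = 8.43e-07). Both libraries with LG268 lay far above those without it. Ebf1, a transcription factor gene of B cell and fat cell development that lies beside Rnf145 (chromosome 11, 44617317 to 45008091), rose 2.26-fold from 3.57 and 3.64 to 8.42 and 7.87 CPM (adjusted p = 0.00184). Pknox2 encodes a homeodomain protein of the same class as the Meis proteins (chromosome 9, 36890982 to 37147407). It rose 2.13-fold from 5.14 and 4.46 to 11.4 and 9.39 CPM (adjusted p = 6.66e-05). Utp14b (chromosome 1, 78658038 to 78671512) lies within the span of Acsl3 on the same strand, so the reads of these genes may not be separable. It rose 2.09-fold from 59.8 and 67.6 to 148 and 117 CPM (adjusted p = 2.46e-06). Malat1, a nuclear noncoding RNA (chromosome 19, 5795690 to 5802672), was at 980.2 and 747 CPM with GW3965 and at 1801 and 1743 CPM with both ligands (2.05-fold, adjusted p = 0.00433). Its levels varied between replicates elsewhere, at 622 and 1091 CPM with LG268 and 586 and 1001 CPM in control, and its call ended without GW3965 replicate 2 (adjusted p = 0.0655).

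Of the core pluripotency factors Sox2 fell, and Pou5f1 and Nanog were not called. Of 28 pluripotency genes tested, 0 rose and 8 fell (median log2 -0.17), and in the fit of 4 libraries 2 fell, Klf4 and Sox2. Klf4, a transcription factor gene of naive pluripotency (chromosome 4, 55527143 to 55532466), was at 27.5 and 24.7 CPM with GW3965 and at 11.2 and 14.4 CPM with both ligands. It fell 2.05-fold (log2 -1.03 ± 0.109, adjusted p = 1.29e-05) without overlap. Sox2 (chromosome 3, 34650405 to 34652461), which acts with the product of Pou5f1, fell 1.59-fold from 252 and 209.5 to 132 and 159.7 CPM (log2 -0.66 ± 0.104, adjusted p = 0.000735). Klf5 fell 1.46-fold (adjusted p = 0.00265) and Klf2 1.55-fold (adjusted p = 0.0121) in the fit of 18 libraries, with adjusted p = 0.0648 and 0.112 in that of the 4, and both calls were lost without GW3965 replicate 1 (adjusted p = 0.0583 and 0.0872). That of Klf2 was also lost without GW3965 replicate 2 or both-ligand replicate 1 (adjusted p = 0.0616 and 0.214). With the GC and length offsets Klf4, Sox2 and Klf5 were called and Klf2 was not (adjusted p = 0.0794). The transcript of Klf2 has 61.6% GC. Klf2 was at 71.2 and 71.7 CPM with GW3965 and at 35.8 and 56.3 CPM with both ligands. Pou5f1 was at 748 and 741 CPM with GW3965 and at 695 and 698 CPM with both ligands, and did not pass (log2 -0.10 ± 0.127, adjusted p = 0.703). Nanog was at 365 and 367 against 381 and 348 CPM, with overlapping groups (log2 -0.01 ± 0.111, adjusted p = 0.998).

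The primed epiblast is the state after implantation. Of 12 of its genes tested, 0 rose and 4 fell (median log2 -0.32), and 2 fell in the fit of 4 libraries. Fgf5, its best known marker (chromosome 5, 98254184 to 98277030), was at 45.2 and 40.2 CPM with GW3965 and at 19.1 and 16.3 CPM with both ligands (2.42-fold lower, log2 -1.28 ± 0.149, adjusted p = 3.71e-05). The groups stood well apart. Dnmt3b, a de novo DNA methyltransferase gene, fell 1.31-fold from 378 and 364 to 284.5 and 283 CPM (adjusted p = 0.046), a call that was lost with DESeq2 size factors (adjusted p = 0.0643), with the GC and length offsets (adjusted p = 0.0847) and when any 1 of the 4 libraries was left out (adjusted p from 0.0718 to 0.228). Otx2, Pou3f1 and Zic2 did not pass.

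Among 22 primitive streak and mesoderm genes 1 rose and 10 fell, with a median log2 of -0.73. In the fit of 4 libraries 1 of 19 rose and 3 fell, and with the GC and length offsets 1 rose and 8 fell. Lhx1, a homeobox gene of early mesendoderm (chromosome 11, 84518284 to 84525535), was at 17.4 and 17.1 CPM with GW3965 and at 4.10 and 8.03 CPM with both ligands. It fell 2.83-fold (log2 -1.50 ± 0.222, adjusted p = 0.000485) without overlap, although the both-ligand libraries differed from each other. Eomes, a T-box gene of mesoderm and endoderm (chromosome 9, 118478212 to 118486132), fell 1.49-fold from 39.4 and 39.2 to 28.1 and 24.6 CPM (adjusted p = 0.00601, or 0.0672 without GW3965 replicate 1). T, the brachyury gene (chromosome 17, 8434423 to 8442496), fell 1.43-fold from 157 and 153.6 to 108.6 and 108.7 CPM (adjusted p = 0.0257). The call of T was lost by the DESeq2 Wald test (adjusted p = 0.300) and when any of the 4 libraries except both-ligand replicate 2 was left out (adjusted p from 0.0975 to 0.156). Wnt3, a ligand that starts streak formation, was 1.68-fold lower (adjusted p = 0.00185, or 0.0709 in the fit of 4 libraries). The 1 rise was Wnt8a (chromosome 18, 34542313 to 34548273), a Wnt ligand gene known to respond to retinoic acid, from 25.6 and 24.9 to 50.2 and 48.1 CPM (1.95-fold, log2 0.96 ± 0.109, adjusted p = 3.71e-05). Msgn1, Mesp1 and Foxf1 were called lower at means under 3 CPM in each group.

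Endoderm genes were called lower in 2 of 20 in the fit of 18 libraries, Foxa2 and Lama1, and in 0 in that of the 4 libraries. Over all genes tested the fit of 18 libraries called 6.98% lower and 3.68% higher. The short lists of this paragraph were not tested against these shares. Foxa2 was at 1.93 and 1.44 CPM with GW3965 and at 0.617 and 0.525 CPM with both ligands (adjusted p = 0.00654, or 0.0884 in the fit of 4 libraries). Of 20 Nodal pathway genes 0 were called in either of these fits, of 12 trophectoderm genes 0, and of 11 genes of the two-cell-like state 0. Neural genes were called higher in 2 of 19, Map2 and Pax6, and lower in 0, and neither of these was called in the fit of 4 libraries (adjusted p = 0.0856 and 0.0972).

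Enpp2, which makes the signalling lipid lysophosphatidic acid (chromosome 15, 54838901 to 54952892), was at 37.0 and 41.8 CPM with GW3965 and at 22.1 and 18.1 CPM with both ligands. It fell 1.96-fold (log2 -0.97 ± 0.0998, adjusted p = 1.29e-05). The rule for the largest falls gave Lhx1, Dlgap3, Fgf5, Rplp2, Dll3 and N4bp3. Dlgap3, a scaffold gene of synapses (chromosome 4, 127169204 to 127237022), fell 2.68-fold from 18.5 and 16.4 to 5.00 and 8.03 CPM (adjusted p = 3.71e-05). Dll3, which encodes an inhibitory Notch ligand (chromosome 7, 28293553 to 28302238), fell 2.13-fold from 16.8 and 14.6 to 6.57 and 8.18 CPM (adjusted p = 0.000879). N4bp3 (chromosome 11, 51643063 to 51650842) fell 2.05-fold from 33.5 and 29.7 to 12.7 and 18.2 CPM (adjusted p = 0.000289). In these 3 genes both-ligand replicate 1 was the lowest library, and their transcripts have 63.9%, 61.0% and 61.2% GC.

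Ribosomal and respiratory chain genes were called lower in part, beside the same library and GC pattern. Of 78 cytosolic ribosomal protein genes 0 rose and 12 fell (median log2 -0.06), with 2 lower in the fit of 4 libraries and 3 higher and 10 lower with DESeq2 size factors. Of 71 nuclear genes of the respiratory chain 1 rose and 17 fell (median -0.09), with 2 lower in the fit of 4 libraries. Rplp2, a protein of the ribosomal stalk (chromosome 7, 141447370 to 141451585), was at 57.6 and 53.9 CPM with GW3965 and at 19.0 and 30.3 CPM with both ligands (2.26-fold lower, adjusted p = 0.000102), with 30.7% of its 50-mers shared. Atp5d, a subunit of ATP synthase (chromosome 10, 80138632 to 80145818), fell 2.00-fold from 101 and 93.8 to 38.7 and 58.4 CPM (adjusted p = 2.4e-05). In both genes replicate 1 with both ligands was lower than replicate 2, while all 6 other ES libraries lay above 40 CPM for Rplp2 and above 89 CPM for Atp5d. With the GC and length offsets both genes were also called (adjusted p = 5.45e-05 and 2.22e-06). The part of GC content in these falls was not tested within the genes.

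**Figure D4:**
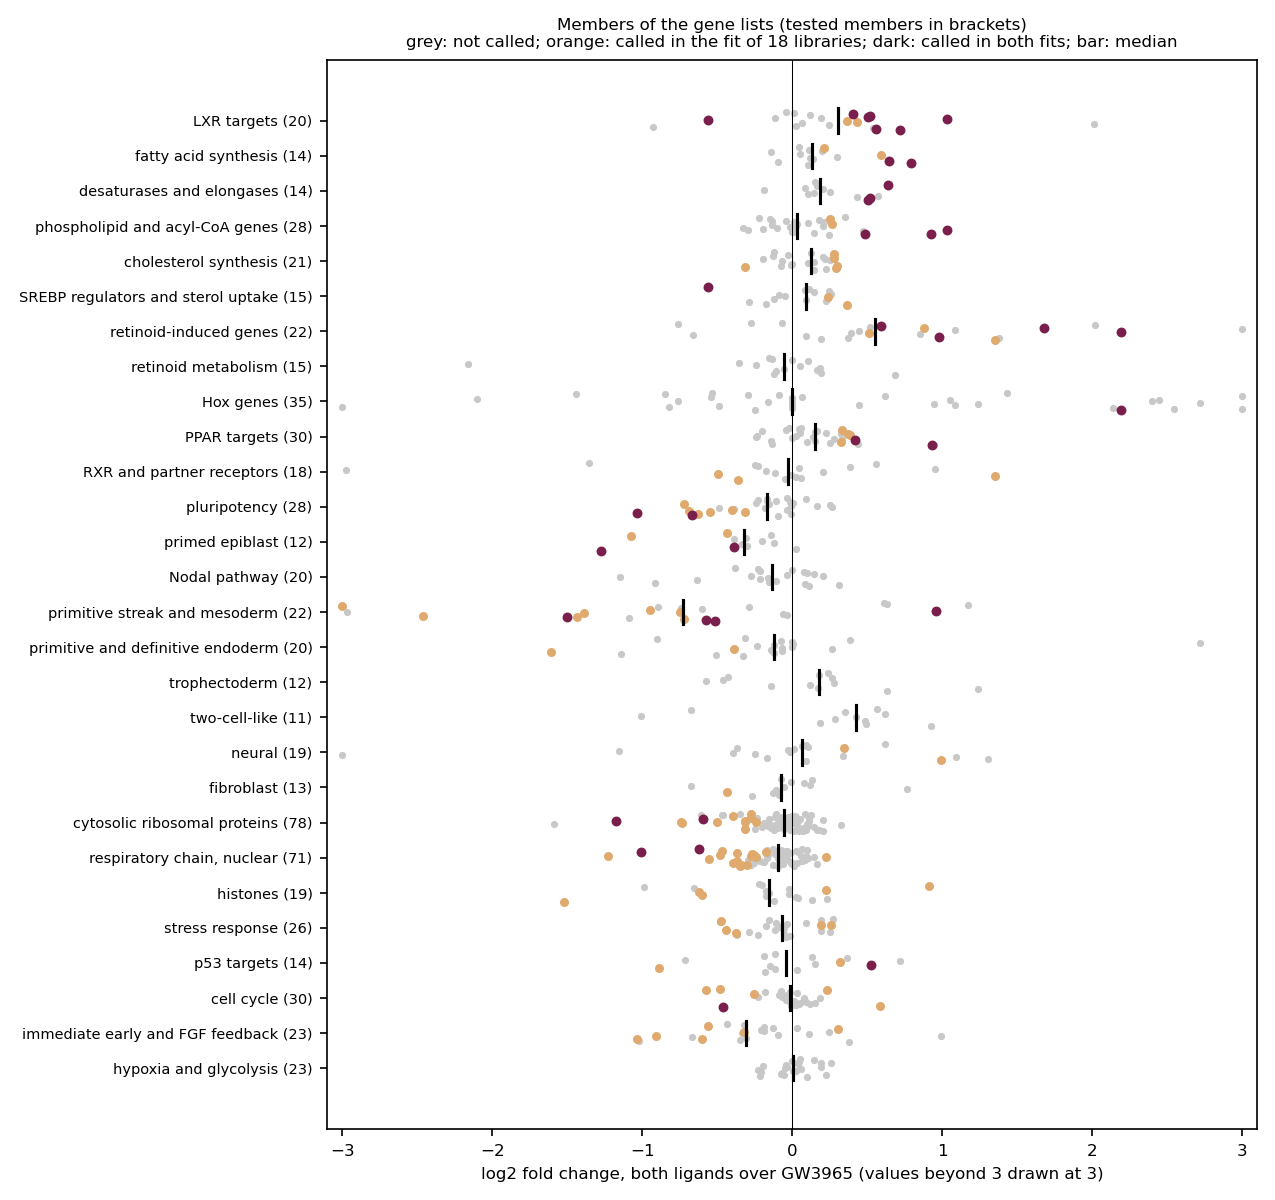
Log2 fold change of both ligands over GW3965 for the tested members of 28 gene lists (one row per list, members as points, bar at the median, values beyond 3 drawn at 3). Retinoid-induced genes have a median of 0.56 and LXR targets of 0.30, and primitive streak and mesoderm genes a median of -0.73.

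In lists of general cell state calls went both ways, beside 3.68% higher and 6.98% lower over all genes tested. Of 30 cell cycle genes 2 rose and 4 fell (median log2 -0.02, or 0.015 with DESeq2 size factors), and 1 fell in the fit of 4 libraries: Ccnd1, the cyclin D1 gene, from 87.3 and 85.2 to 65.0 and 60.6 CPM (1.38-fold, adjusted p = 0.0366). This call held in 8 of 15 alternatives and was lost when any 1 of the 4 libraries was left out (adjusted p from 0.108 to 0.184) and with DESeq2 size factors (adjusted p = 0.0503). Of the 15 alternatives 1 is the fit of the 4 libraries itself, in which Ccnd1 was called by its choice. Of 26 stress response genes 2 rose and 3 fell, and of 23 genes of hypoxia and glycolysis 0 were called. Among 23 immediate early and FGF feedback genes 1 rose and 5 fell, with 0 called in the fit of 4 libraries. Trp53inp1, a p53 target that promotes autophagy (chromosome 4, 11156431 to 11174379), rose 1.44-fold from 897 and 840 to 1337 and 1170 CPM (adjusted p = 0.000187). It was the 1 of 14 p53 targets called in both fits. In the fit of 18 libraries Sesn1 was also called higher (adjusted p = 0.0135) and Bbc3 lower (1.85-fold, adjusted p = 0.0235). Bbc3 was at 45.45 and 45.32 CPM with GW3965 and at 13.7 and 35.09 CPM with both ligands. Neither Sesn1 nor Bbc3 passed in the fit of 4 libraries (adjusted p = 0.0995 and 0.175), and Bbc3 did not with the GC and length offsets (adjusted p = 0.0777). Of 19 histone genes 2 rose and 3 fell, with 0 in the fit of 4 libraries.

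LG268 was then compared with control in cells without GW3965, a comparison that shares no library with the one above. Both came from the same fit of 18 libraries and share its spread for each gene, so their calls are not independent. It called 146 genes (0.851%), 89 higher (0.518%) and 57 lower (0.332%). Of these 146, 94 (64.4%) were also called on top of GW3965, each in the same direction, and these made 5.1% of the 1831 genes called there. By direction it was 64 of the 89 higher genes and 30 of the 57 lower ones. In 141 of the 146 the fold changes had the same sign, against 56.5% of all genes tested. Of the 111 genes called in both fits on top of GW3965, 45 (40.5%) were called without it.

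Several responses were alike in size. Meis2 rose 2.32-fold without GW3965 and 3.20-fold with it, Bcl2 2.20-fold and 2.80-fold, and Acaca 1.61-fold and 1.56-fold. Fgf5 fell 2.15-fold without GW3965 and 2.42-fold with it, and Lhx1 3.31-fold and 2.83-fold. The tests of these differences did not pass, with log2 differences of 0.47 ± 0.249 for Meis2, 0.35 ± 0.183 for Bcl2, -0.04 ± 0.0831 for Acaca, -0.17 ± 0.205 for Fgf5 and 0.23 ± 0.313 for Lhx1 (adjusted p from 0.412 to 0.905), which does not show them to be equal. Sox2 was at 203 and 205 CPM with LG268 and 212 and 211 CPM in control (adjusted p = 0.952), and Klf4 at 22.0 and 21.4 against 27.6 and 28.7 CPM (adjusted p = 0.0974). The difference missed the threshold for both in the edgeR fit (adjusted p = 0.0874 and 0.083). By the DESeq2 Wald test both differences passed (adjusted p = 0.0188 for Sox2 and 0.0154 for Klf4), as they did without both-ligand replicate 2 (adjusted p = 0.00305 and 0.00183). The Sox2 difference also passed by limma-voom (adjusted p = 0.0401). The fall of Klf4 without GW3965 passed in the fit of its 4 libraries (adjusted p = 0.00776) and with the GC and length offsets (adjusted p = 0.0283), so these calls depend on the method.

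The difference between the LG268 responses with and without GW3965 was called for 23 genes (0.134%), 1 higher and 22 lower, with 2352 genes at an unadjusted p below 0.05. For Abca1 the LG268 response was 4.80-fold without GW3965 and 1.65-fold on top of it, a log2 difference of -1.54 ± 0.131 (adjusted p = 4.49e-06). For Scd2 it was 2.58-fold and 1.43-fold, a difference of -0.85 ± 0.0766 (adjusted p = 6.91e-06). These tests are on the ratio scale. In levels LG268 added 30.8 CPM of Abca1 to the control mean of 8.15 CPM and 218 CPM to the GW3965 mean of 336 CPM, and it added 1904 and 1993 CPM of Scd2. Abcg1 had a smaller ratio on top of GW3965 (-0.69 ± 0.13, adjusted p = 0.0438), with 32.2 CPM added without GW3965 and 94.1 CPM with it. Its call was lost when any library was left out except both-ligand replicate 2 (adjusted p from 0.104 to 0.221), while those of Abca1 and Scd2 held in all alternatives run.

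Lpcat3 was the 1 gene with a larger ratio on top of GW3965. LG268 raised it 1.52-fold in control cells, from 94.0 and 96.1 to 146 and 143.5 CPM, and 2.04-fold in cells given GW3965. The log2 difference was 0.42 ± 0.0762 (adjusted p = 0.0376), and LG268 added 49.6 CPM without GW3965 and 199.7 CPM with it. This call was lost in the fit of the 8 ES libraries (adjusted p = 0.0655) and when any library was left out except both-ligand replicate 2 (adjusted p from 0.0802 to 0.217). The other 19 genes were all called lower on top of GW3965 and not called without it. Of the 18 with a GC value 17 lay above the median GC content of the tested genes, and in 18 of the 19 both-ligand replicate 1 was lower than replicate 2. The part of this in the 19 calls was not tested. Among them were Rplp2 (-1.31 ± 0.205, adjusted p = 0.0151), Atp5d (-1.11 ± 0.155, adjusted p = 0.00418) and Junb, an immediate early gene that was at 26.9 and 24.3 CPM with GW3965 and at 7.75 and 17.2 CPM with both ligands (-1.59 ± 0.302, adjusted p = 0.0438). With the GC and length offsets 7 differences were called in all.

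**Figure D5:**
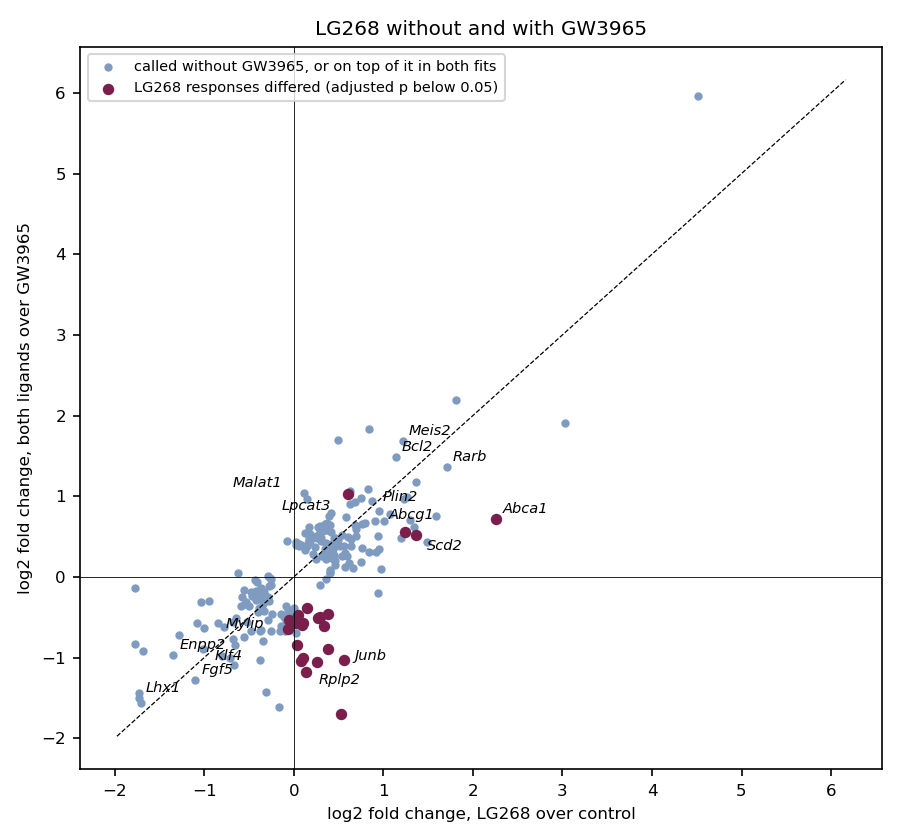
Log2 fold change of both ligands over GW3965 (vertical axis) against that of LG268 over control (horizontal axis), for genes called without GW3965, called on top of it in both fits, or with different responses (dark). The dashed line marks equal ratios: Abca1 lies at 2.26 and 0.72, far below it, Lpcat3 at 0.61 and 1.03 above it, and Rplp2 at 0.14 and -1.18.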

How the data were processed

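RNA libraries had been prepared with standard Illumina protocols from Trizol RNA, per the labels' protocols. The authors deposited 1 file of whole-number read counts per gene symbol for each library, made with reads aligned to mm10. The submitters' processing notes name TopHat2 2.0.7, HTSeq 0.6.0, Cufflinks 2.0.2 and Cuffdiff 2.0.2. The annotation and strand setting are not given in the sources used here. Reads with no gene, 64.66 to 65.92% in the 8 ES files, and the other HTSeq summary lines were left out.

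Software was Python 3.11.15 and R 4.3.3 with DESeq2 1.42.0, edgeR 4.0.16 and limma 3.58.1. Of 23420 symbols 17166 passed filterByExpr. Libraries were scaled by TMM and 18 libraries in 9 groups were fitted with edgeR's quasi-likelihood model, with two-sided tests adjusted by Benjamini-Hochberg over all genes tested. Genes with an adjusted p below 0.05 were called, whatever their fold. Levels are counts per M counts of the genes tested, with library sizes scaled by TMM (CPM). The SE of a log2 fold change was computed from the F statistic of its test. When tested on simulated data, both fits recovered 26% of planted 1.25-fold changes. Changes were planted only in genes above a minimum mean count in the GW3965 libraries, so recovery at lower counts was not measured. False calls were 10 of 155 in the fit of 18 libraries and 24 of 171 in that of 4 libraries. The simulation gave each gene the same spread in all groups and planted no GC trend. It therefore does not measure the false calls of either fit in the real both-ligand libraries, whose replicates agreed less. Positions, GC content and shared 50-mers come from GENCODE M21 (GRCm38), with 98.44% of symbols matched.

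Named genes were 13 fixed ones, the 6 largest rises and falls called in both fits at 5 CPM or more without overlap, up to 4 called members of lists with 2 or more, and the 4 smallest p for response differences. Others are named as counts or examples of lists, and some genes that the rule names are not reported here. The comparison, the 28 lists and this rule were chosen with earlier results of these data known. The motif search, the fit of 4 libraries with GC and length offsets and the limit of 5% shared 50-mers were chosen after the data were seen.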

Additional observations from a re-analysis of the deposited data

Results flagged for a closer look

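The LG268 response differed with GW3965, by the interaction term of the edgeR fit, in 10 of the named genes. Values are log2 differences, the response on top of GW3965 minus that without it. The lipid genes were Abca1 at -1.54, Scd2 at -0.85, Abcg1 at -0.69 and Lpcat3 at 0.42. Abca1 and Scd2 passed in every alternative run, and Abcg1 and Lpcat3 did not. The other 6 were Rplp2 at -1.31, Rps10 at -0.68, Atp5d at -1.11, Ndufa13 at -0.53, N4bp3 at -1.11 and Junb at -1.59. In these 6 the LG268 response without GW3965 was not called. Under the offsets for GC content and length the differences of N4bp3, Rps10, Ndufa13 and Junb did not pass (adjusted p = 0.0814, 0.229, 0.61 and 0.0508), and Rplp2 and Atp5d did. In the fit of the 8 ES libraries none of these 6 passed (adjusted p from 0.0575 to 0.124). Of the 50-mers of Rps10 56.8% are shared with another gene.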

How the results depend on the processing

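For LG268 on top of GW3965, 1831 genes were called, and between 325 (without both-ligand replicate 1) and 3077 (without both-ligand replicate 2) when 1 library was left out, where the lone library is assumed to vary like those of the other groups. The count was 111 in the fit of the 4 libraries, 1195 with GC and length offsets (848 of them among the 1831) and 659 with both. For LG268 without GW3965 the 146 calls became 336 without a filter, 230 by the Wald test of DESeq2, 500 with quality weights, 843 in the fit of 4 libraries and 903 with GC and length offsets added, and 42 to 70 when 1 library was left out. The 23 response differences became 617 without a filter, 12 with the stricter filter, 11 with DESeq2 size factors, 179 by the Wald test, 114 with limma-voom, 241 with quality weights, 5 in the fit of the 8 ES libraries and 7 with offsets. They were 2 to 1461 when 1 library was left out, the last without both-ligand replicate 2. The cause of these shifts was not tested.

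Replicate numbers did not pair the libraries (correlation of deviations -0.088 between these groups and -0.192 to 0.121 over 36 pairs of groups). With a replicate block the counts were 1695, 142 and 16, and the calls of all 84 genes given by the naming rule held. Of those 84 calls 47 were lost in the fit of 4 libraries, 17 with GC and length offsets and 34 without both-ligand replicate 1, and 0 changed direction in any alternative. Of the 111 genes called in both fits 77 were called in all 15 alternatives of the whole table. Of these 15 alternatives 1 is the fit of the 4 libraries, which all 111 genes passed by their definition. Genes under 5 CPM, such as Rarb and Meis1, are limited by depth.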

Other observations

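The genes in this section were chosen after their values were seen, from the 111 called in both fits. Interferon-inducible genes were among the rises. Rsad2, an antiviral enzyme gene, was at 2.28 and 1.38 CPM with GW3965 and at 7.30 and 6.29 CPM with both ligands (3.56-fold, edgeR adjusted p = 0.00113). The guanylate-binding protein genes Gbp2, Gbp3 and Gbp7, which lie in one gene cluster on chromosome 3 together with Gbp1 (142530342 to 142638008), rose 1.34-fold, 1.54-fold and 1.44-fold (adjusted p = 0.00551, 0.00107 and 0.0164). Gbp3 was at 67.1 and 65.1 CPM with GW3965 and at 113 and 91.6 CPM with both ligands. H2-K1, a class I histocompatibility gene, rose 1.39-fold from 320.2 and 313 to 416 and 462.5 CPM (adjusted p = 0.00467, or 0.0532 without GW3965 replicate 1). The calls of Gbp2 and Gbp7 were lost without both-ligand replicate 1 (adjusted p = 0.0859 and 0.183) and without GW3965 replicate 1 (adjusted p = 0.0685 and 0.119). That of Gbp7 was also lost without GW3965 replicate 2 (adjusted p = 0.0900) and with GC and length offsets (adjusted p = 0.0617). None of the 3 Gbp genes nor Rsad2 was called for LG268 without GW3965 (adjusted p from 0.28 to 0.758), and H2-K1 was (1.56-fold, adjusted p = 0.00143). The differences between the responses did not pass for any of these 5 genes (adjusted p from 0.304 to 0.643).

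Apln, a secreted peptide gene, and Aplnr, its receptor gene, both fell. Apln was at 16.7 and 18.2 CPM with GW3965 and at 8.64 and 8.92 CPM with both ligands (1.98-fold, adjusted p = 0.00111), and Aplnr at 23.5 and 24.9 against 13.4 and 12.6 CPM (1.86-fold, adjusted p = 0.0122). The call of Aplnr was lost when any of the 4 libraries except both-ligand replicate 2 was left out (adjusted p from 0.0652 to 0.0829). Fst, which encodes an activin inhibitor, fell 1.55-fold from 38.5 and 36.8 to 24.9 and 23.7 CPM (adjusted p = 0.00868, but 0.0637 without both-ligand replicate 1 and 0.0880 without GW3965 replicate 1). Ntn1, a guidance cue gene, fell 1.80-fold (adjusted p = 0.00195) and Gli2, a transcription factor gene of the Hedgehog pathway, 1.59-fold (adjusted p = 0.000523). Mycn was at 85.1 and 83.1 CPM with GW3965 and at 46.7 and 50.6 CPM with both ligands (1.73-fold lower, adjusted p = 9.75e-06). Srm, the spermidine synthase gene, fell 1.59-fold (adjusted p = 3.29e-05), and Rrs1 and Gar1, which act in ribosome assembly, 1.48-fold and 1.59-fold (adjusted p = 0.00314 and 0.00027), where the call of Rrs1 was lost without both-ligand replicate 1 (adjusted p = 0.0519). The imprinted genes Peg10 and Grb10 rose 1.47-fold and 1.36-fold, from 1766 and 1615 to 2470 and 2514 CPM and from 413 and 398 to 564 and 543 CPM (adjusted p = 0.000289 and 0.000485).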
